A study of Mus musculus with 23 samples.

Results

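The members were 40 mouse genes of the NF-kB system and its inflammatory targets: 5 NF-kB subunits, 5 IkB-type inhibitors and co-factors, 7 feedback inhibitors, 7 signalling adaptors and kinases, 4 receptors and surface molecules, 6 cytokines, 3 inflammasome genes, and 3 inducible enzymes and other targets. They were chosen by name, not by a measured value, but with earlier results of these data known. Chromatin accessibility around them was read from 23 ATAC-seq libraries. In this assay a transposase cuts open DNA, and dense cutting is called as a peak. Overlapping peaks of all libraries were merged into 155137 regions, and a region belonged to a member when that gene's body was the nearest protein-coding gene body and lay within 50 kb. This gave 532 member regions at 40 genes. The farthest region inside the limit, Ripk2 region 22, lay 49.567 kb from its gene, the nearest one outside lay 50.152 kb from Il12b, and 100 regions nearest to a member lay beyond the limit. Regions are numbered along the chromosome within each gene, so Socs3 region 3 is the third of the Socs3 regions. Assignment by distance names the nearest gene and does not show which gene a region acts on.

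The libraries formed 11 groups in 4 experiments. The first followed repopulation of the liver. Repopulating liver macrophages came from Clec4f-cre/Rosa26iDTR mice 24 h (3 libraries) or 48 h (2 libraries) after diphtheria toxin, which kills the Kupffer cells that the Clec4f promoter marks, and resident Kupffer cells came from mice of the same strain given PBS (2 libraries). Ly6C-high blood monocytes came from untreated C57BL/6J mice (2 libraries), a strain without the transgenes. The second experiment held TIM4+ and TIM4- Kupffer cells of Nr1h3 flox/flox Clec4f-cre+/- mice, which lack LXR alpha in Clec4f-expressing cells, and TIM4+ Kupffer cells of Nr1h3 flox/flox mice as controls (2 libraries each). The third held Kupffer cells titled Smad4 knockout and Kupffer cells titled control, of Smad4 flox/flox mice with and without Clec4f-cre+/- (2 libraries each). The titles and the strain labels of these 4 libraries disagree, so the groups follow the titles, and every direction between them would turn round if the strain labels were right. The fourth held C57BL/6J bone marrow-derived macrophages (BMDMs) cultured for 4 days, with or without the Notch ligand DLL4 for 24 h (2 libraries each). The file headers mark all 23 libraries as male. No source used here gives an age. In the repopulation experiment the titles number the mice. Nothing in the labels states that the other libraries come from separate animals or cultures, so p-values measure the spread between these libraries, which may be technical.

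NF-kB is a family of dimeric transcription factors built from RelA, c-Rel, RelB, p50 and p52. In resting cells IkB proteins hold the dimers in the cytoplasm. Signals from Toll-like, interleukin-1 and TNF receptors activate kinases that lead to the breakdown of IkB, and the freed dimers bind kB motifs and induce cytokines, enzymes and the system's own inhibitors, among them IkB alpha and A20. Macrophages of the liver are exposed to gut-derived bacterial products, and this feedback limits their response.

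Promoter windows of 300 bases, 250 before and 50 after a transcription start, were listed for 32 of the 40 members, as 40 windows (RefSeq, GRCm38.p6). Nfkb1, Nos2, Il10, Ripk2, Map3k8, Relb, Cd40 and Nfkbiz were not listed. The 5 windows below are examples, and the open region over each passed the threshold in at least 1 comparison. Other promoter regions that passed, such as Casp4 region 2 and Nlrp3 region 8, are not shown. All but the Socs3 window hold a kB match, so the examples do not stand for the 40 windows. They run 5′ to 3′ on the gene's strand, and capitals mark matches to the kB motif on either strand.
Nfkb2: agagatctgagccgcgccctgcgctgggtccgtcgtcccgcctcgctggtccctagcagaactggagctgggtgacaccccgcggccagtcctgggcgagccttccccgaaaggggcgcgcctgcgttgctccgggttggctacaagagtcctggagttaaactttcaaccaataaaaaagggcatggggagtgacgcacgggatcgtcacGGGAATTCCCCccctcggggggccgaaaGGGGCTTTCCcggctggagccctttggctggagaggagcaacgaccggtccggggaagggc
Rel: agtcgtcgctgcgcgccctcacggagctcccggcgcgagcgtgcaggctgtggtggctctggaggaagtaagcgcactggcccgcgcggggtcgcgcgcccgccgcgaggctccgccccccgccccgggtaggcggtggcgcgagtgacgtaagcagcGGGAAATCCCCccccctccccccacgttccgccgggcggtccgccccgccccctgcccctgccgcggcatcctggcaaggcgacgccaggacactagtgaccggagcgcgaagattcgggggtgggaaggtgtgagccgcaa
Nfkbia: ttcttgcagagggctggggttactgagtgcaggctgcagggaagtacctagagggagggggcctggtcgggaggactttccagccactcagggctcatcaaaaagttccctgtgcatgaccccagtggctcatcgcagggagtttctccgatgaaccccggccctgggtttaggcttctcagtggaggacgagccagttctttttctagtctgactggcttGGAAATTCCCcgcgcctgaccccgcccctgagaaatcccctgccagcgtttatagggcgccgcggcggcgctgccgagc
Tnip1: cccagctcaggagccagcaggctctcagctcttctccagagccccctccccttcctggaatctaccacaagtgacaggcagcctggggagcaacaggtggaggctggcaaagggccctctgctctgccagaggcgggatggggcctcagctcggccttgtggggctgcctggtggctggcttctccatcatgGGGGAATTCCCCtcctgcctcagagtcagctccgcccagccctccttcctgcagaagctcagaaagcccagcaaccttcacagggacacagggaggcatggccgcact
Socs3: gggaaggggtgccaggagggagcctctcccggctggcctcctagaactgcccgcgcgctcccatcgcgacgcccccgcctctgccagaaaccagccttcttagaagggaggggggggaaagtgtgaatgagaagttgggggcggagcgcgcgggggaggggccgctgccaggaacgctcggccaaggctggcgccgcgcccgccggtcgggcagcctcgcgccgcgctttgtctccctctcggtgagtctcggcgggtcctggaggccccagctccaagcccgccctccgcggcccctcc
Nfkb2 encodes p100, the precursor of p52, and its window lay on the plus strand at chr19:46304487-46304786. Rel encodes c-Rel (minus strand, chr11:23770920-23771219), Nfkbia encodes IkB alpha (minus strand, chr12:55492598-55492897), and Tnip1 encodes an A20-binding inhibitor (minus strand, chr11:54962891-54963190). Socs3, a suppressor of cytokine signalling, had no kB match in its window (minus strand, chr11:117969317-117969616). The kB matches began 39, 38 and 11 bases before the start in Nfkb2, 92 and 91 bases before it in Rel, 29 before it in Nfkbia, and 58, 57 and 56 before it in Tnip1, where neighbouring positions are overlapping readings of the same stretch. The kB motif matched 14 of the 40 member windows (35%), against 1480 of all 32851 windows (4.51%). The 14 windows belonged to Bcl3, Casp4, Il6, Nfkb2, Nfkbia, Nfkbie, Nlrp3, Rel, Tnfaip3, Tnip1 and Tnip3. The AP-1 motif TGANTCA matched 8 member windows (20%), against 7.81% of all windows, and the PU.1 motif GAGGAAGT matched 2 (5%), against 3.20%. Both strands were searched. Of the 23 kB matches in member windows, 11 overlapped another kB match and 0 overlapped an AP-1 or PU.1 match. A match is a description of the letters and does not show binding, and many of these genes are known as NF-kB targets.

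The libraries held 10.4 to 18.4 M tags and 48775 to 104206 deposited peaks, with 15.4% to 54.7% of tags inside peaks. Replicates correlated at Pearson r of 0.928 to 0.970 across shared regions, which describes regions within pairs of libraries and carries no test. Of 7 Kupffer cell marker genes, 6 had a peak in the Kupffer cells given PBS, against 1 in blood monocytes, and there was 1 at 24 h and 2 at 48 h. Their summed signal overlapped between Kupffer cells (353 to 400) and blood monocytes (317 to 402). It was 274.2 to 300.5 at 24 h and 297.8 to 395.7 at 48 h. The gene with a peak in blood monocytes was Id3, at 317.4 and 402.4, against 114.7 and 196.5 in Kupffer cells. Clec4f had no peak in the libraries titled Smad4 knockout and Timd4 had none in the TIM4- cells. Timd4 did have peaks in BMDMs, of 53.8 and 59.5 normalised tags with DLL4, against 60.2 and 48.2 without. Of 8 neutrophil marker genes, 6 or 7 had a peak in BMDMs (summed signal 286 to 345), against 1 to 4 in every other group (8.93 to 149). Of 6 monocyte marker genes, 5 had a peak in blood monocytes (summed signal 313 to 362), 3 or 4 at 24 h (101 to 122), 4 at 48 h (98.9 to 101) and 1 in Kupffer cells (10.4 to 13.4). B cell markers summed to 25.3 at most, T and NK cell markers summed to 31.2 at most, hepatocyte markers to 26.3, liver endothelial markers to 38.3 and stellate cell markers to 9.83. Of 5 dendritic cell marker genes, Zbtb46 had no peak and Xcr1 a peak in every library, and the list summed to 496 to 658 in blood monocytes, 389.5 to 409 at 24 h, 289.7 to 357 at 48 h and 147 to 162 in Kupffer cells. Flt3 was the one of them at which both blood monocyte libraries (215.7 and 300.9) lay above every other library. Flt3 had 74.9 to 90.8 at 24 h, 66.2 and 46.2 at 48 h, and 13.3 in 1 of 2 Kupffer cell libraries. Xcr1 had 266.2 and 357.3 in blood monocytes, against 298.7 to 316.4 at 24 h. The deleted genes could not be checked, as peaks do not show whether a floxed exon is lost. Open regions inside Nr1h3 numbered 5 in each Nr1h3 knockout library and 4 in their controls and every other library. Inside Smad4 they numbered 2 and 3 in the libraries titled Smad4 knockout, against 2 and 2 in those titled control. The strongest Smad4 peaks were 55.8 and 54.6, against 55.1 and 75.4.

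All 40 members had at least 1 open region in every library. Regions per gene ranged from 2 to 39, with a median of 12. Gene bodies held 255 of the 532 member regions (47.9%), counting any overlap, 130 lay within 10 kb outside a body and 147 lay farther away. Member regions were called in all 23 libraries in 127 cases (23.9%, against 17.2% of all regions) and in 1 library in 62 cases (11.7%, against 16.7%). Their median signal was 34.2 normalised tags, a peak's tag count scaled to a library of 10 M tags, against 26.1 over all regions. Of the 36 regions over a member's own listed promoter, 26 were open in all libraries (72.2%, against 63.0% of all promoter regions). Another gene was as near in 3 cases, Sirt2 at Nfkbib region 2, Bco2 at Il18 region 1 and Tex12 at Il18 region 2. Fewer cells with an open site and less signal per cell cannot be told apart in bulk libraries.

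Member regions called per library averaged 281.5 in blood monocytes, 300 at 24 h, 343.5 at 48 h and 282 in Kupffer cells. TIM4+ Nr1h3 knockout libraries averaged 256 and TIM4- knockout libraries 318, against 290.5 in their controls. Cells titled Smad4 knockout averaged 248.5, against 284.5 in cells titled control. DLL4-treated BMDMs averaged 335, against 338 without DLL4. Member regions made up 0.342% to 0.514% of a library's regions. Since lists differ in length, a count per library also reads how many peaks were called in that library.

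**Figure D1:**
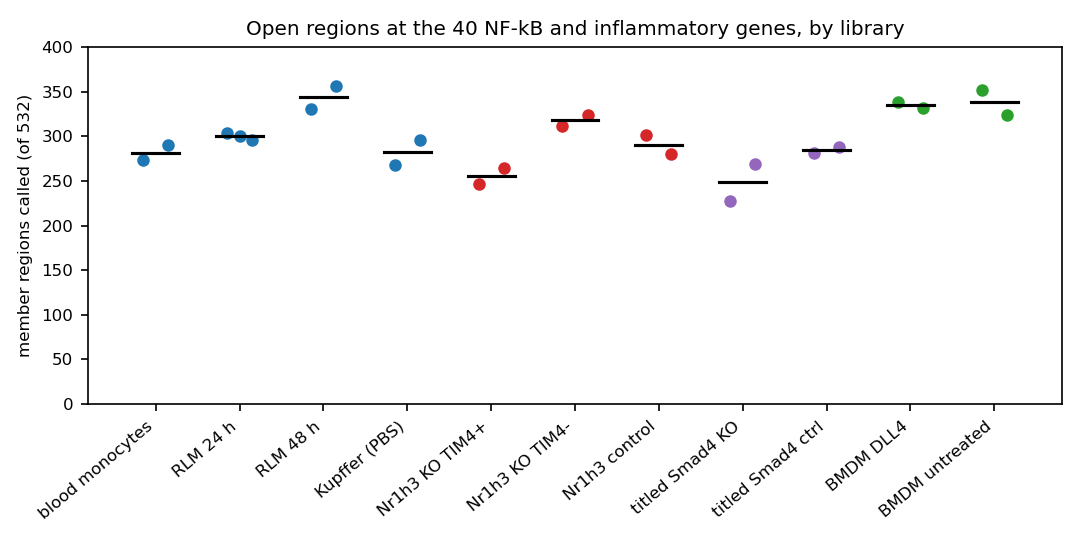
Member regions called in each of the 23 libraries (points, 1 per library) and group means (black lines), with the count on the y axis and the 11 groups on the x axis. Group means lie between 248.5 in cells titled Smad4 knockout and 343.5 in 48 h repopulating macrophages.

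The strongest peak of a gene was lowest in cells titled Smad4 knockout at 33 of the 40 genes and highest in TIM4- Nr1h3 knockout cells at 20. Peak heights are not centred, and the libraries titled Smad4 knockout had 15.4% and 19.6% of their tags inside peaks, against 41.3% and 43.8% in TIM4- Nr1h3 knockout libraries, so the height of 1 gene's peak also reads the level of its library. Within a group the count of a gene's regions varied between libraries by an SD of at most 4.24 regions (n = 2, and n = 3 at 24 h), and peak heights are in normalised tags (mean ± SD over the group's libraries). Among subunits and IkB-type genes, 3 members are given in every group. Nfkb1, which encodes p105, the precursor of p50, had 39 regions in all and means of 23, 21.3, 22.5 and 13 called per library in blood monocytes, 24 h, 48 h and Kupffer cells. Nfkb1 averaged 11.5 in TIM4+ and 19.5 in TIM4- Nr1h3 knockout cells, against 15.5 in their controls, 13.5 in cells titled Smad4 knockout against 12.5 in titled controls, and 25 in DLL4-treated against 27 in untreated BMDMs. The strongest Nfkb1 peak was highest in 24 h repopulating macrophages (176 ± 3.74) and lowest in cells titled Smad4 knockout (43.6 ± 1.63). Nfkbiz, which encodes the nuclear co-factor IkB zeta, averaged 13.5, 14.3, 14.5 and 13.5 of its 22 regions at the 4 repopulation stages. Nfkbiz averaged 12 in TIM4+ and 15.5 in TIM4- Nr1h3 knockout cells, against 13 in their controls, 11.5 in cells titled Smad4 knockout against 12.5 in titled controls, and 12.5 in DLL4-treated against 12 in untreated BMDMs. The strongest Nfkbiz peak was highest in TIM4- Nr1h3 knockout cells (317 ± 0.424) and lowest in cells titled control (141 ± 13.8). Nfkbia, which encodes IkB alpha, averaged 11.5, 10.3, 13 and 11 of its 17 regions at the 4 repopulation stages. Nfkbia averaged 7 in TIM4+ and 11.5 in TIM4- Nr1h3 knockout cells, against 11 in their controls, 8 in cells titled Smad4 knockout against 11 in titled controls, and 11 in DLL4-treated against 11 in untreated BMDMs. The strongest Nfkbia peak was highest in TIM4- Nr1h3 knockout cells (431 ± 8.63) and lowest in cells titled Smad4 knockout (142 ± 12.7).

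The feedback inhibitors held 130 regions, the most of any role. Tnfaip3, which encodes the ubiquitin-editing enzyme A20, had 18 regions in all and means of 9, 12.7, 14.5 and 12 called per library in blood monocytes, 24 h, 48 h and Kupffer cells. Tnfaip3 averaged 11 in TIM4+ and 12.5 in TIM4- Nr1h3 knockout cells, against 12.5 in their controls, 10.5 in cells titled Smad4 knockout against 11.5 in titled controls, and 12 in DLL4-treated against 11.5 in untreated BMDMs. The strongest Tnfaip3 peak was highest in TIM4- Nr1h3 knockout cells (506 ± 7.57) and lowest in untreated BMDMs (123 ± 17.5). Tnip1, an A20-binding inhibitor gene, averaged 8, 8.67, 10.5 and 6.5 of its 19 regions at the 4 repopulation stages. Tnip1 averaged 7.5 in TIM4+ and 9 in TIM4- Nr1h3 knockout cells, against 8 in their controls, 9 in cells titled Smad4 knockout against 10.5 in titled controls, and 12.5 in DLL4-treated against 11.5 in untreated BMDMs. The strongest Tnip1 peak was highest in DLL4-treated BMDMs (197 ± 9.405) and lowest in cells titled Smad4 knockout (78.1 ± 6.22). Tnip3, another gene for an A20-binding protein, averaged 8.5, 10, 13.5 and 6 of its 21 regions at the 4 repopulation stages. Tnip3 averaged 3.5 in TIM4+ and 6.5 in TIM4- Nr1h3 knockout cells, against 5.5 in their controls, 3.5 in cells titled Smad4 knockout against 5 in titled controls, and 14.5 in DLL4-treated against 15.5 in untreated BMDMs. The strongest Tnip3 peak was highest in untreated BMDMs (159.9 ± 18.03) and lowest in cells titled Smad4 knockout (34.1 ± 0.0707). Irak3, which encodes the inhibitory kinase homologue IRAK-M, averaged 16, 17.3, 19 and 13.5 of its 24 regions at the 4 repopulation stages. Irak3 averaged 13.5 in TIM4+ and 17 in TIM4- Nr1h3 knockout cells, against 13 in their controls, 8.5 in cells titled Smad4 knockout against 10 in titled controls, and 17 in DLL4-treated against 17 in untreated BMDMs. The strongest Irak3 peak was highest in DLL4-treated BMDMs (187 ± 29.4) and lowest in cells titled Smad4 knockout (40.8 ± 13.4). Socs3, a suppressor of cytokine signalling, averaged 11.5, 11.7, 10.5 and 7 of its 18 regions at the 4 repopulation stages. Socs3 averaged 10 in TIM4+ and 9.5 in TIM4- Nr1h3 knockout cells, against 7.5 in their controls, 9 in cells titled Smad4 knockout against 8.5 in titled controls, and 11.5 in DLL4-treated against 11.5 in untreated BMDMs. The strongest Socs3 peak was highest in blood monocytes (289 ± 57.1) and lowest in cells titled Smad4 knockout (95.8 ± 23.3). Il1rn, which encodes the interleukin-1 receptor antagonist, averaged 5.5, 6.67, 8 and 6.5 of its 15 regions at the 4 repopulation stages. Il1rn averaged 2.5 in TIM4+ and 6 in TIM4- Nr1h3 knockout cells, against 6.5 in their controls, 3.5 in cells titled Smad4 knockout against 6.5 in titled controls, and 6 in DLL4-treated against 5.5 in untreated BMDMs. The strongest Il1rn peak was highest in untreated BMDMs (90.5 ± 4.596) and lowest in cells titled Smad4 knockout (29.6 ± 4.74).

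The adaptors and kinases held 104 regions and the receptors and surface molecules 47. Traf1, a TNF receptor-associated adaptor gene, had 11 regions in all and means of 8, 8.33, 8.5 and 2.5 called per library in blood monocytes, 24 h, 48 h and Kupffer cells. Traf1 averaged 4 in TIM4+ and 7 in TIM4- Nr1h3 knockout cells, against 4.5 in their controls, 4.5 in cells titled Smad4 knockout against 4.5 in titled controls, and 7 in DLL4-treated against 7.5 in untreated BMDMs. The strongest Traf1 peak was highest in TIM4- Nr1h3 knockout cells (91.95 ± 0.919) and lowest in cells titled Smad4 knockout (38.95 ± 2.47). Ripk2, the kinase gene downstream of NOD1 and NOD2, averaged 12, 14.3, 16.5 and 15 of its 22 regions at the 4 repopulation stages. Ripk2 averaged 12 in TIM4+ and 16 in TIM4- Nr1h3 knockout cells, against 15 in their controls, 11.5 in cells titled Smad4 knockout against 14 in titled controls, and 16.5 in DLL4-treated against 14.5 in untreated BMDMs. The strongest Ripk2 peak was highest in DLL4-treated BMDMs (759 ± 90.1) and lowest in cells titled Smad4 knockout (243 ± 36.4). Irak2, a kinase-family gene of interleukin-1 and Toll-like receptor signalling, averaged 15.5, 16, 14.5 and 13.5 of its 20 regions at the 4 repopulation stages. Irak2 averaged 12.5 in TIM4+ and 12.5 in TIM4- Nr1h3 knockout cells, against 13 in their controls, 13 in cells titled Smad4 knockout against 13 in titled controls, and 13.5 in DLL4-treated against 14 in untreated BMDMs. The strongest Irak2 peak was highest in DLL4-treated BMDMs (287 ± 9.76) and lowest in cells titled Smad4 knockout (87 ± 17.3). Map3k8, which encodes the kinase TPL2, averaged 11.5, 12.7, 15 and 16 of its 26 regions at the 4 repopulation stages. Map3k8 averaged 14.5 in TIM4+ and 19 in TIM4- Nr1h3 knockout cells, against 16.5 in their controls, 12 in cells titled Smad4 knockout against 16.5 in titled controls, and 14.5 in DLL4-treated against 15 in untreated BMDMs. The strongest Map3k8 peak was highest in TIM4- Nr1h3 knockout cells (299 ± 5.37) and lowest in cells titled Smad4 knockout (96.8 ± 9.69). Tnfrsf1b, which encodes TNF receptor 2, averaged 11, 11.3, 12.5 and 14 of its 18 regions at the 4 repopulation stages. Tnfrsf1b averaged 10 in TIM4+ and 12 in TIM4- Nr1h3 knockout cells, against 14 in their controls, 10.5 in cells titled Smad4 knockout against 12.5 in titled controls, and 12.5 in DLL4-treated against 11.5 in untreated BMDMs. The strongest Tnfrsf1b peak was highest in 48 h repopulating macrophages (228 ± 2.97) and lowest in cells titled Smad4 knockout (85.3 ± 16.3). Cd80, a co-stimulatory ligand gene, averaged 5.5, 4.67, 6 and 6 of its 13 regions at the 4 repopulation stages. Cd80 averaged 5 in TIM4+ and 5 in TIM4- Nr1h3 knockout cells, against 5 in their controls, 5 in cells titled Smad4 knockout against 5 in titled controls, and 4.5 in DLL4-treated against 5 in untreated BMDMs. The strongest Cd80 peak was highest in TIM4- Nr1h3 knockout cells (175 ± 6.51) and lowest in cells titled Smad4 knockout (57.3 ± 8.49).

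The cytokines held 73 regions and the inducible enzymes and other targets 29. Il1a, which encodes interleukin-1 alpha, had 11 regions in all and means of 6.5, 8.33, 9 and 7 called per library in blood monocytes, 24 h, 48 h and Kupffer cells. Il1a averaged 7 in TIM4+ and 9 in TIM4- Nr1h3 knockout cells, against 8 in their controls, 8 in cells titled Smad4 knockout against 7 in titled controls, and 7.5 in DLL4-treated against 6.5 in untreated BMDMs. The strongest Il1a peak was highest in TIM4- Nr1h3 knockout cells (158 ± 8.91) and lowest in cells titled Smad4 knockout (53 ± 18.95). Il1b, which encodes interleukin-1 beta, averaged 11, 11, 12.5 and 12.5 of its 22 regions at the 4 repopulation stages. Il1b averaged 11 in TIM4+ and 12.5 in TIM4- Nr1h3 knockout cells, against 12.5 in their controls, 11.5 in cells titled Smad4 knockout against 11.5 in titled controls, and 12.5 in DLL4-treated against 11.5 in untreated BMDMs. The strongest Il1b peak was highest in TIM4- Nr1h3 knockout cells (211 ± 20.3) and lowest in Kupffer cells (73 ± 12.02). Il12b, which encodes the p40 chain shared by interleukin-12 and interleukin-23, averaged 4.5, 7.67, 12 and 12 of its 20 regions at the 4 repopulation stages. Il12b averaged 7.5 in TIM4+ and 11.5 in TIM4- Nr1h3 knockout cells, against 12.5 in their controls, 9.5 in cells titled Smad4 knockout against 12 in titled controls, and 10 in DLL4-treated against 9 in untreated BMDMs. The strongest Il12b peak was highest in TIM4- Nr1h3 knockout cells (142 ± 5.303) and lowest in cells titled Smad4 knockout (46.1 ± 23.3). Ptgs2, which encodes cyclooxygenase 2, averaged 3, 4, 4.5 and 2.5 of its 7 regions at the 4 repopulation stages. Ptgs2 averaged 2 in TIM4+ and 3.5 in TIM4- Nr1h3 knockout cells, against 2 in their controls, 1.5 in cells titled Smad4 knockout against 2 in titled controls, and 4 in DLL4-treated against 5 in untreated BMDMs. The strongest Ptgs2 peak was highest in 24 h repopulating macrophages (114 ± 16.8) and lowest in cells titled control (15.2 ± 1.77). Nos2, the inducible nitric oxide synthase gene, averaged 7, 3.67, 2.5 and 2 of its 10 regions at the 4 repopulation stages. Nos2 averaged 2 in TIM4+ and 3 in TIM4- Nr1h3 knockout cells, against 1.5 in their controls, 2 in cells titled Smad4 knockout against 3 in titled controls, and 6 in DLL4-treated against 6.5 in untreated BMDMs. The strongest Nos2 peak was highest in TIM4- Nr1h3 knockout cells (87.7 ± 10.7) and lowest in Kupffer cells (28.6 ± 2.47). Tnfaip2, a TNF-induced gene, averaged 4.5, 4.33, 8 and 5 of its 12 regions at the 4 repopulation stages. Tnfaip2 averaged 4.5 in TIM4+ and 6 in TIM4- Nr1h3 knockout cells, against 6.5 in their controls, 6 in cells titled Smad4 knockout against 6.5 in titled controls, and 6.5 in DLL4-treated against 8.5 in untreated BMDMs. The strongest Tnfaip2 peak was highest in TIM4- Nr1h3 knockout cells (319 ± 35.1) and lowest in cells titled Smad4 knockout (122 ± 4.53).

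For the members with fewest regions the height of the strongest peak is given. Nfkbib, which encodes IkB beta, had 2 regions, and its strongest peak averaged 234, 197, 218 and 171 at the 4 repopulation stages. At Nfkbib it averaged 203 in TIM4+ and 306 in TIM4- Nr1h3 knockout cells, against 258 in controls, 95.2 in cells titled Smad4 knockout against 134 in titled controls, and 252 with DLL4 against 209.6 without. The Nfkbib peak was highest in TIM4- Nr1h3 knockout cells and lowest in cells titled Smad4 knockout. Relb, the RelB subunit gene, had 4 regions, and its strongest peak averaged 345, 342, 297 and 243 at the 4 repopulation stages. At Relb it averaged 282 in TIM4+ and 434 in TIM4- Nr1h3 knockout cells, against 273 in controls, 174 in cells titled Smad4 knockout against 221 in titled controls, and 392 with DLL4 against 367 without. The Relb peak was highest in TIM4- Nr1h3 knockout cells and lowest in cells titled Smad4 knockout. Tnf, the tumour necrosis factor gene, had 4 regions, and its strongest peak averaged 167, 144, 92 and 56.8 at the 4 repopulation stages. At Tnf it averaged 81.8 in TIM4+ and 136 in TIM4- Nr1h3 knockout cells, against 101 in controls, 44.3 in cells titled Smad4 knockout against 47.8 in titled controls, and 144 with DLL4 against 169.6 without. The Tnf peak was highest in untreated BMDMs and lowest in cells titled Smad4 knockout. Traf2, an adaptor gene, had 4 regions, and its strongest peak averaged 319, 334, 351 and 212 at the 4 repopulation stages. At Traf2 it averaged 278 in TIM4+ and 512 in TIM4- Nr1h3 knockout cells, against 304 in controls, 209 in cells titled Smad4 knockout against 236 in titled controls, and 390.2 with DLL4 against 376 without. The Traf2 peak was highest in TIM4- Nr1h3 knockout cells and lowest in cells titled Smad4 knockout. Casp1, the inflammatory caspase gene, had 5 regions, and its strongest peak averaged 84.1, 135, 114 and 93.95 at the 4 repopulation stages. At Casp1 it averaged 53 in TIM4+ and 90 in TIM4- Nr1h3 knockout cells, against 60.1 in controls, 27.3 in cells titled Smad4 knockout against 29.8 in titled controls, and 144 with DLL4 against 118 without. The Casp1 peak was highest in DLL4-treated BMDMs and lowest in cells titled Smad4 knockout.

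The other 14 members, Nfkb2, Nfkbie, Rel, Rela, Il6, Il10, Il18, Nlrp3, Casp4, Birc3, Icam1, Cd40, Bcl3 and Ikbke, had 5 to 15 regions each. Their strongest peaks had medians over the 23 libraries of 47.7 normalised tags at Il6 to 331 at Birc3.

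**Figure D2:**
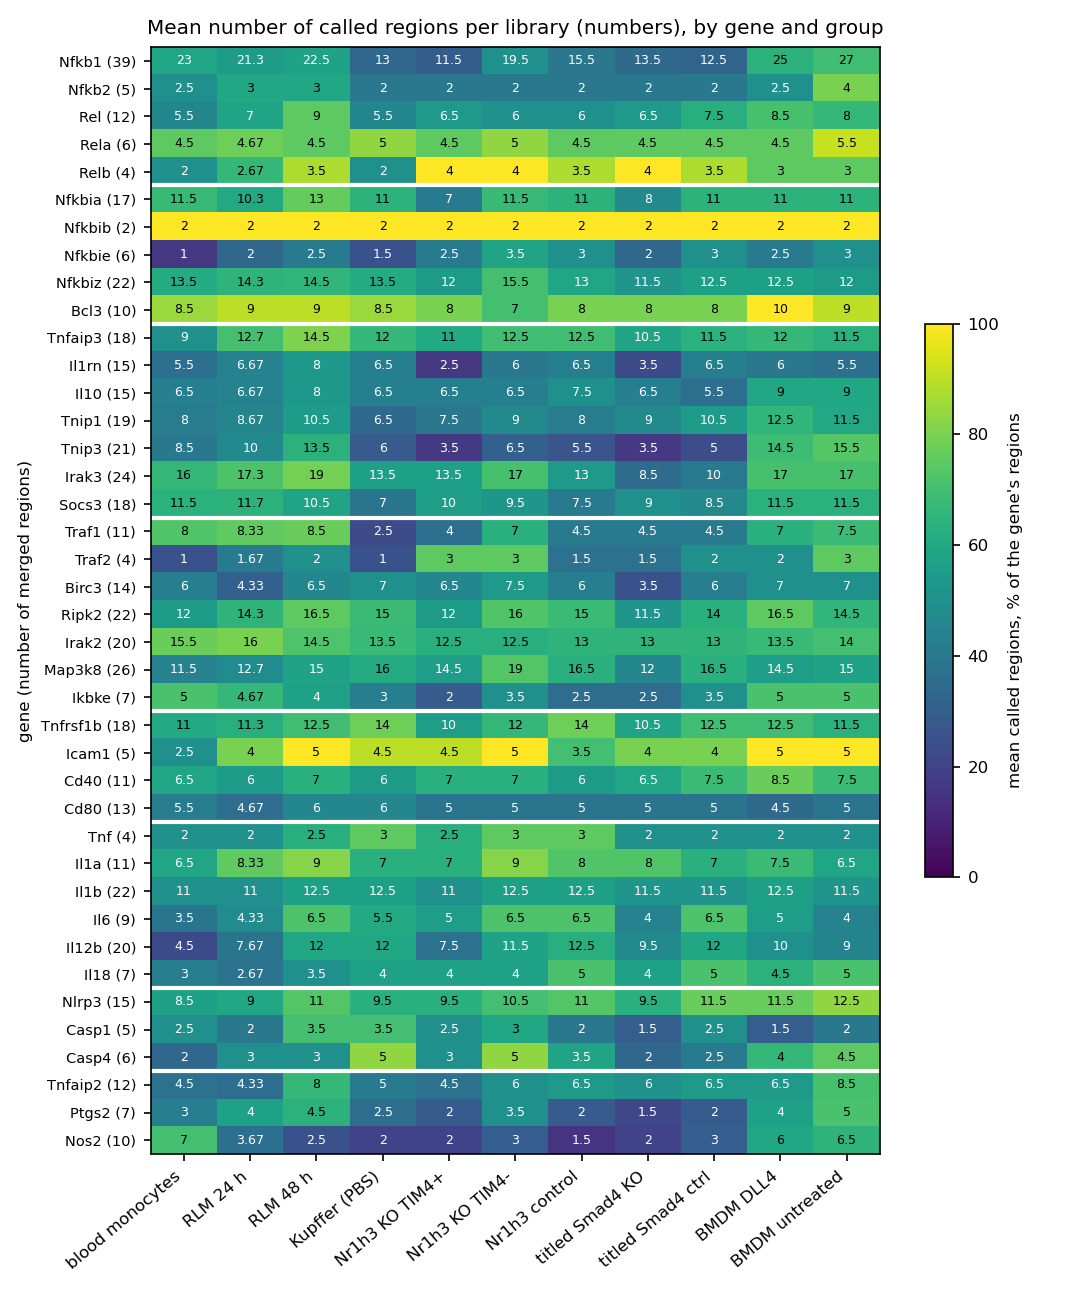
Mean number of called regions per library (printed numbers) for the 40 genes (rows, grouped by role, with the number of merged regions in brackets) in the 11 groups (columns). Colour gives the mean as a percentage of the gene's regions, so Nos2, with 10 regions, is lightest in blood monocytes among the repopulation stages.

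In each comparison, signal was tested with limma on log2(normalised tags + 1) at regions that had a peak in each library of the 2 groups. Values were centred on the library's median, with Benjamini-Hochberg adjustment over all such regions and a threshold of 0.05. A fold change is on that log2 scale, the first-named group minus the second, and understates changes at weak regions. It is relative to the median of all tested regions. Regions called in every library of 1 group and in no library of the other were counted separately and carry no test. Of the 532 member regions, 344 were tested in at least 1 comparison and 155 passed in at least 1. Comparisons that share a group, such as 24 h and Kupffer cells each against blood monocytes, share its libraries and are given side by side without a correlation.

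**Figure D3:**
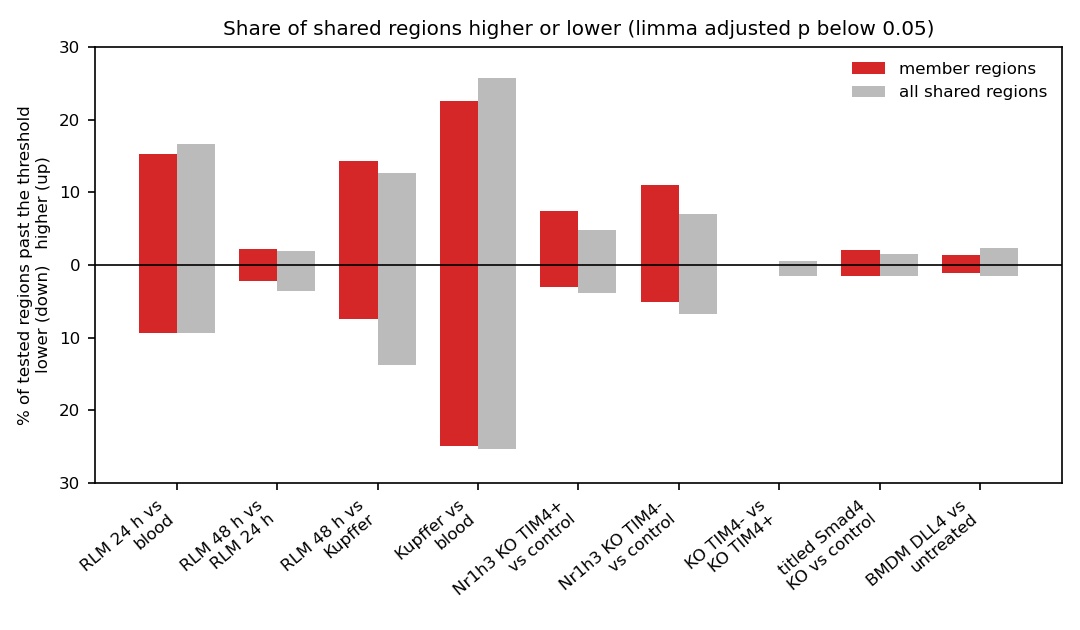
Percentage of tested regions past the threshold (limma adjusted p below 0.05) as higher and as lower in each of the 9 comparisons, for member regions (red bars) and all tested regions (grey bars), with higher drawn up and lower drawn down. For Kupffer cells against blood monocytes, 39 and 43 of 173 member regions passed, against 25.7% and 25.3% of all regions.

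The first comparison sets repopulating macrophages taken 24 h after diphtheria toxin against blood monocytes. Relative to blood monocytes, 31 of 203 tested member regions had risen at 24 h and 19 had fallen, at 26 genes. Risen and fallen here mean higher and lower than in the monocytes, which are a separate population and not an earlier time point of the same cells. The 24 h cells came from transgenic mice given diphtheria toxin and the monocytes from untreated C57BL/6J mice, so strain, toxin and cell state cannot be told apart. Over all regions 16.7% were higher and 9.33% lower, so the members' shares of 15.3% and 9.36% were near the background. Of the adaptor and kinase regions 10 of 41 rose and 3 fell, and of the feedback inhibitor regions 2 of 47 rose and 6 fell. All 3 called Irak2 regions and all 4 called Map3k8 regions rose, and all 4 called Socs3 regions fell.

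The IkB zeta gene led the rise. Nfkbiz region 21, across an end of the gene body at chr16:55838564-55839027, had a signal of 125, 98.1 and 87.3 in 24 h repopulating macrophages, against 26.9 and 35.2 in blood monocytes. Every library of 24 h repopulating macrophages was above every library of blood monocytes there, with a difference on the log2 scale of 1.97 (SE 0.23, limma adjusted p = 2.7e-07). TNF receptor 2 is a receptor of myeloid and T cells. Tnfrsf1b region 8, in the gene body at chr4:145222001-145222456, had a signal of 45.9, 51.8 and 25.6 in 24 h repopulating macrophages, against 11.4 and 13.4 in blood monocytes. The 24 h libraries varied and all lay above the blood libraries, with a difference on the log2 scale of 1.86 (SE 0.33, limma adjusted p = 0.0001). Ripk2 changed in both directions, and its region 12 rose by 1.57. Ripk2 region 3, outside the gene body (39.3 kb away) at chr4:16083150-16083430, had a signal of 19.7, 25.4 and 27.5 in 24 h repopulating macrophages, against 108 and 139.6 in blood monocytes. All 3 libraries at 24 h were lower, with a difference on the log2 scale of -2.05 (SE 0.27, limma adjusted p = 1.7e-06). Other risen regions had log2 fold changes of 1.76 at Irak2 region 5, 1.57 at Ripk2 region 12, 1.53 at Map3k8 region 8, 1.24 at Tnfaip3 region 18, 1.19 at Il1b region 1 and 1.13 at Ptgs2 region 5 (limma adjusted p between 5.2e-07 and 0.00028). Other fallen regions had -1.37 at Cd80 region 2, -1.34 at Socs3 region 9, -1.19 at Il12b region 1, -1.15 at Irak3 region 19, -1.13 at Nfkb1 region 24, -1.13 at Il1a region 9 and -0.99 at Il18 region 1 (limma adjusted p between 0.00012 and 0.0165). The count of 50 was 26 without blood monocyte replicate 1 and 19 without blood monocyte replicate 2, and Il12b region 1, Il1a region 9, Irak3 region 19 and Nfkb1 region 24 lost the call without 1 of these libraries or 24 h replicate 1 (limma adjusted p 0.0589 to 0.214). Without centring, 9 member regions passed as higher and 27 as lower, against 2077 and 5808 of all 45317 tested regions. With quantile normalisation, 22 member regions passed as higher and 21 as lower, against 5410 and 5155 of all 45317 tested regions. The median signal was -0.27 (log2) at 24 h minus blood. Monocyte marker genes had a summed signal of 101 to 122 at 24 h, against 313 to 362 in blood monocytes, and dendritic cell marker genes 389.5 to 409, against 496 to 658; their part in the result was not tested.

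Among the 532 member regions, 24 (4.51%, against 1.83% of all regions) were called in every library of 24 h repopulating macrophages and none of blood monocytes, and 16 (3.01%, against 2.72%) in every library of blood monocytes and none of 24 h repopulating macrophages. Within 1 kb of 6 of the 24 and 5 of the 16 lay a peak of the other group. The genes with most regions called at 24 h only, with the count and the mean signal, were Ripk2 (4, mean 64.3), Nfkbiz (2, mean 53.3), Il12b (2, mean 30.1), Tnip3 (2, mean 28.97) and Map3k8 (2, mean 23.5). Those with most in blood only were Nos2 (3, mean 12.3), Socs3 (2, mean 24.4), Nfkbiz (1, mean 75.1), Tnfrsf1b (1, mean 33.2) and Ripk2 (1, mean 25.7). Over the 203 member regions the median log2 fold change was 0.10, and over all 45317 tested regions 0.09. In a wider list of 40 further NF-kB pathway genes, 16 of 134 tested regions passed as higher and 17 as lower, with the extreme log2 fold changes at Tnfrsf1a, TNF receptor 1, at 1.08 (SE 0.24, limma adjusted p = 0.00111) and Malt1, the paracaspase of antigen-receptor signalling to NF-kB, at -1.80 (SE 0.28, limma adjusted p = 1.5e-05).

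Few member regions passed between 24 h and 48 h. Relative to 24 h, 5 of 232 tested member regions had risen at 48 h and 5 had fallen, where 1.92% and 3.53% of all regions did, 5.44% in all. Irak3 held 2 of the risen regions, and the other 3 were at Il12b, Tnfrsf1b and Icam1. IkB-type genes, inflammasome genes and inducible enzymes had no region past the threshold, of 33, 10 and 9 tested. Il12b region 16, across an end of the gene body and mostly outside it at chr11:44414633-44415269, had a signal of 129.9 and 133 in 48 h repopulating macrophages, against 58, 45.4 and 30.3 in 24 h repopulating macrophages. Every library of 48 h repopulating macrophages was above every library of 24 h repopulating macrophages there, differing on the log2 scale by 1.42 (SE 0.23, limma adjusted p = 0.00094). IRAK-M dampens Toll-like receptor signalling. Irak3 region 9, in the gene body at chr10:120151645-120152062, had a signal of 63.6 and 71.1 in 48 h repopulating macrophages, against 27.1, 24.5 and 19 in 24 h repopulating macrophages. Irak3 region 9 values of the 2 groups did not overlap, with a difference on the log2 scale of 1.33 (SE 0.28, limma adjusted p = 0.00753). Ripk2 region 9, outside the gene body (19.5 kb away) at chr4:16102936-16103222, had a signal of 13.9 and 22.7 in 48 h repopulating macrophages, against 61.8, 38.1 and 43.6 in 24 h repopulating macrophages. At Ripk2 region 9 the higher values were all in 24 h repopulating macrophages, differing on the log2 scale by -1.51 (SE 0.31, limma adjusted p = 0.00561). Other regions had log2 fold changes of 0.90 at Tnfrsf1b region 10, 0.79 at Icam1 region 4, -1.29 at Tnip1 region 8, -1.004 at Socs3 region 14, -0.81 at Tnf region 1 and -0.74 at Nfkb1 region 39 (limma adjusted p between 0.00703 and 0.0452). Socs3 region 14 is the region over the promoter printed above. The count of 10 was 1 without 48 h replicate 1 and 1 without 48 h replicate 2, and Icam1 region 4, Il12b region 16, Irak3 region 9, Nfkb1 region 39, Ripk2 region 9, Socs3 region 14, Tnf region 1, Tnfrsf1b region 10 and Tnip1 region 8 lost the call without 1 of these libraries or 24 h replicate 1, 24 h replicate 2 or 24 h replicate 3 (limma adjusted p 0.0547 to 0.302). The 23 regions called in 1 group only were 51 without 48 h replicate 1, 41 without 48 h replicate 2 and 35 without 24 h replicate 2. Without centring, 6 member regions passed as higher and 1 as lower, against 1104 and 253 of all 48442 tested regions, and Tnip1 region 8, Socs3 region 14, Tnf region 1 and Nfkb1 region 39 did not pass (limma adjusted p 0.0515 to 0.108). With quantile normalisation, 7 member regions passed as higher and 3 as lower, against 845 and 604 of all 48442 tested regions, and Tnip1 region 8 and Socs3 region 14 did not pass (limma adjusted p 0.0649 to 0.0993).

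By peak calls, 21 member regions (3.95%, against 3.27% of all regions) had a peak in every library of 48 h repopulating macrophages and none of 24 h repopulating macrophages, and 2 (0.376%, against 0.391%) in every library of 24 h repopulating macrophages and none of 48 h repopulating macrophages. A peak of the other group lay within 1 kb of 6 of the 21 and 1 of the 2. With lists of equal length, 10 member regions were called at 48 h only and 5 at 24 h only. Regions called at 48 h only were led by Tnfaip3 (2, mean 29.4), Nfkb1 (2, mean 13.04), Tnip3 (2, mean 11.9), Birc3 (1, mean 78.6) and Il1a (1, mean 47.8), with the count and mean signal in brackets. The 2 called at 24 h only were at Irak2 (1, mean 22.1) and Nfkb1 (1, mean 18.03). The median log2 fold change was 0.03 over the 232 member regions and -0.08 over all 48442 tested regions. Of 134 regions tested at the 40 wider pathway genes, 3 passed as higher and 4 as lower, with the extreme log2 fold changes at Malt1, the paracaspase gene, at 1.31 (SE 0.34, limma adjusted p = 0.0236) and Map3k14, the gene of the non-canonical kinase NIK, at -1.33 (SE 0.30, limma adjusted p = 0.0107).

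The 48 h repopulating macrophages and resident Kupffer cells differed at regions of all 8 roles. Against Kupffer cells, 31 of 217 tested member regions were higher at 48 h and 16 lower, 21.7% in all, with 12.6% and 13.7% over all regions, 26.4% in all. Cytokine regions were higher in 7 of 33 cases and lower in 4, inflammasome regions in 4 of 11 and 1, and regions of inducible enzymes and other targets in 3 of 8 and 0. Adaptor and kinase regions were higher in 6 of 44 and lower in 5, feedback inhibitor regions in 4 of 44 and 2, IkB-type regions in 3 of 31 and 2, and receptor regions in 1 of 23 and 2. Nlrp3 held all 4 higher inflammasome regions, and all 3 called subunit regions were higher. Ripk2 held all 5 lower regions of the adaptors and kinases. The largest difference upward was at cyclooxygenase 2. Ptgs2 region 5, downstream of the gene (35.3 kb away) at chr1:150143577-150143926, had a signal of 104 and 118 in 48 h repopulating macrophages, against 24.6 and 17.3 in Kupffer cells. Every library of 48 h repopulating macrophages was above every library of Kupffer cells there, with a difference on the log2 scale of 2.08 (SE 0.26, limma adjusted p = 9e-09). Irak3 region 9, in the gene body at chr10:120151645-120152062, had a signal of 63.6 and 71.1 in 48 h repopulating macrophages, against 11.4 and 20.1 in Kupffer cells. Irak3 region 9 values of the 2 groups did not overlap, differing on the log2 scale by 1.79 (SE 0.30, limma adjusted p = 7.8e-06). Ripk2 region 19, outside the gene body (33.04 kb away) at chr4:16196715-16196995, had a signal of 10.5 and 16.1 in 48 h repopulating macrophages, against 34.1 and 35.5 in Kupffer cells. At Ripk2 region 19 the higher values were all in Kupffer cells, with a difference on the log2 scale of -1.63 (SE 0.33, limma adjusted p = 0.00017). Other higher regions had log2 fold changes of 1.23 at Il1a region 6, 1.16 at Nfkb1 region 22, 1.15 at Il1b region 20, 1.03 at Tnip3 region 13, 0.92 at Nos2 region 4 and 0.91 at Irak2 region 9 (limma adjusted p between 0.00205 and 0.0352), and other lower ones -1.46 at Tnfrsf1b region 8, -1.24 at Il18 region 3, -1.18 at Nfkbiz region 7, -1.02 at Il1rn region 12, -1.01 at Il12b region 18, -0.92 at Irak3 region 22 and -0.87 at Il1b region 15 (limma adjusted p between 1.1e-06 and 0.0383). The count of 47 was 20 without 48 h replicate 1, 18 without 48 h replicate 2 and 22 without Kupffer cell replicate 1, and Il18 region 3, Il1a region 6, Il1b region 15, Il1b region 20, Il1rn region 12, Irak2 region 9, Irak3 region 22, Nfkb1 region 22, Nfkbiz region 7, Nos2 region 4 and Tnip3 region 13 lost the call without 1 of these libraries or Kupffer cell replicate 2 (limma adjusted p 0.0503 to 0.429). The 60 regions called in 1 group only were 98 without 48 h replicate 1 and 93 without Kupffer cell replicate 2. Without Kupffer cell replicate 2, Irak2 region 9 stood at 1.41, and without 48 h replicate 1, Il1rn region 12 stood at -1.55. Without centring, 67 member regions passed as higher and 6 as lower, against 11666 and 2919 of all 46198 tested regions, and Il1rn region 12, Il12b region 18, Irak3 region 22 and Il1b region 15 did not pass (limma adjusted p 0.0584 to 0.171). With quantile normalisation, 30 member regions passed as higher and 16 as lower, against 5744 and 5863 of all 46198 tested regions. The median signal was 0.28 (log2) higher at 48 h, and monocyte marker genes had a summed signal of 98.9 to 101 at 48 h, against 10.4 to 13.4 in Kupffer cells, and dendritic cell marker genes 289.7 to 357, against 147 to 162; their part in the result was not tested.

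Of the 532 member regions, 48 (9.02%, against 8.32% of all regions) were called in every library of 48 h repopulating macrophages and none of Kupffer cells, and 12 (2.26%, against 2.94%) in every library of Kupffer cells and none of 48 h repopulating macrophages. Within 1 kb of 12 of the 48 and 6 of the 12 lay a peak of the other group. At 48 h only, the leading genes were Nfkb1 (8, mean 32.8), Tnip3 (6, mean 21.9), Traf1 (4, mean 19.9), Tnip1 (3, mean 20.6) and Irak3 (3, mean 16.4). Feedback inhibitors held 14 of the 48 regions and subunits 13, of which 8 were at Nfkb1. Of all 532 member regions, these roles held 130 and 66. In Kupffer cells only, they were Tnfrsf1b (2, mean 36.95), Map3k8 (2, mean 19.98), Il1b (2, mean 18.8), Nfkb1 (1, mean 40.5) and Nfkbiz (1, mean 21.9). Over the 217 member regions the median log2 fold change was 0.03, and over all 46198 tested regions 0.01. In a wider list of 40 further NF-kB pathway genes, 20 of 138 tested regions passed as higher and 12 as lower, with the extreme log2 fold changes at Il1r1, the interleukin-1 receptor gene, at 1.27 (SE 0.27, limma adjusted p = 0.00032) and Malt1, the paracaspase gene, at -1.88 (SE 0.35, limma adjusted p = 4e-05).

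Kupffer cells and blood monocytes, the ends of the repopulation series, differed at a larger share of tested member regions than any other pair of the 9 comparisons. Of 173 tested member regions, 39 were higher and 43 lower in Kupffer cells, near the 25.7% and 25.3% of all regions. Adaptor and kinase regions were higher in 10 of 34 cases and lower in 4. Cytokine regions were lower in 9 of 21 and higher in 4, feedback inhibitor regions lower in 8 of 34 and higher in 5, and the 3 called regions of inducible enzymes and other targets were all lower. The largest difference was at TNF receptor 2. Tnfrsf1b region 8, in the gene body at chr4:145222001-145222456, had a signal of 92.9 and 112 in Kupffer cells, against 11.4 and 13.4 in blood monocytes. Every library of Kupffer cells was above every library of blood monocytes there, differing on the log2 scale by 3.34 (SE 0.30, limma adjusted p = 1.4e-15). NLRP3 is the sensor of the canonical inflammasome. Nlrp3 region 12, in the gene body at chr11:59554638-59554979, had a signal of 28.4 and 58.5 in Kupffer cells, against 10.6 and 9.87 in blood monocytes. Nlrp3 region 12 values of the 2 groups did not overlap, with a difference on the log2 scale of 2.29 (SE 0.35, limma adjusted p = 8.1e-08). Il1a region 9, upstream of the gene (18.1 kb away) at chr2:129328312-129328566, had a signal of 9.48 and 16.3 in Kupffer cells, against 62.7 and 86 in blood monocytes. At Il1a region 9 the higher values were all in blood monocytes, differing on the log2 scale by -2.08 (SE 0.31, limma adjusted p = 7.5e-08). The Socs3 promoter region was lower. Socs3 region 14, at a listed promoter at chr11:117969080-117969454, had a signal of 38.9 and 49.8 in Kupffer cells, against 248 and 245 in blood monocytes. No library of Kupffer cells reached the level of blood monocytes at Socs3 region 14, with a difference on the log2 scale of -2.07 (SE 0.19, limma adjusted p = 1.7e-14). Nlrp3 also held lower regions upstream, with -2.01 (SE 0.24, limma adjusted p = 1.6e-10) at region 1. Other higher regions had log2 fold changes of 2.01 at Cd80 region 8, 1.97 at Nfkbiz region 5, 1.65 at Il12b region 7, 1.53 at Tnfaip3 region 18, 1.52 at Map3k8 region 8 and 1.52 at Nfkb1 region 34 (limma adjusted p between 4.2e-12 and 0.00043). Other lower regions had -1.55 at Il1b region 18, -1.49 at Tnfrsf1b region 4, -1.31 at Nos2 region 4, -1.14 at Ptgs2 region 5 and -1.13 at Tnf region 1 (limma adjusted p between 7.4e-08 and 0.00117). The count of 82 was 50 without blood monocyte replicate 2, and Nfkb1 region 34 lost the call without it (limma adjusted p 0.089). Without centring, 13 member regions passed as higher and 51 as lower, against 3802 and 11825 of all 37850 tested regions. With quantile normalisation, 38 member regions passed as higher and 39 as lower, against 9229 and 9836 of all 37850 tested regions. The median signal was -0.39 (log2), Kupffer cells minus blood. Monocyte marker genes had a summed signal of 10.4 to 13.4 in Kupffer cells, against 313 to 362 in blood monocytes, and dendritic cell marker genes 147 to 162, against 496 to 658; their part in the result was not tested. Tnfaip3 region 18 stood at 0.81 with peaks summed per region, and at 0.66 in the 24 h comparison. Kupffer cells carried the transgenes and blood monocytes did not, so strain and cell type cannot be told apart.

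Among the 532 member regions, 46 (8.65%, against 8.15% of all regions) were called in every library of Kupffer cells and none of blood monocytes, and 53 (9.96%, against 10.1%) in every library of blood monocytes and none of Kupffer cells. A peak of the other group lay within 1 kb of 12 of the 46 and 12 of the 53. In Kupffer cells only, the leading genes were Map3k8 (6, mean 26.6), Il12b (5, mean 44.2), Ripk2 (5, mean 41.6), Nfkbiz (3, mean 50.2) and Tnfrsf1b (3, mean 31.3). In blood monocytes only, they were Nfkb1 (10, mean 35.9), Socs3 (5, mean 36.2), Nos2 (5, mean 12.2), Traf1 (4, mean 19.3) and Ikbke (3, mean 19.5). Subunit genes, with 66 of the 532 member regions, had 1 region in Kupffer cells only and 11 in blood only, 10 of them at Nfkb1. The median log2 fold change was -0.02 over the 173 member regions and -0.0036 over all 37850 tested regions. Of 123 regions tested at the 40 wider pathway genes, 24 passed as higher and 42 as lower, with the extreme log2 fold changes at Birc2, which encodes the ubiquitin ligase cIAP1, at 2.96 (SE 0.31, limma adjusted p = 1.2e-12) and Card9, the adaptor of C-type lectin receptors, at -2.42 (SE 0.27, limma adjusted p = 1.3e-11).

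LXR alpha, the product of Nr1h3, is a sterol-activated nuclear receptor that is known to restrain inflammatory genes in macrophages. In TIM4+ Nr1h3 knockout cells, 15 of 203 tested member regions were higher than in TIM4+ controls and 6 lower, where 4.86% and 3.91% of all regions were, 8.78% in all. Socs3 held 5 of the higher regions and Nfkb2 2. All called regions of subunits (3), IkB-type genes (2) and adaptors and kinases (3) were higher, and all 3 called cytokine regions were lower. The higher calls rest on the centring, as without it none passed. Socs3 region 18, upstream of the gene (7.53 kb away) at chr11:117977863-117978195, had a signal of 23 and 41.6 in TIM4+ Nr1h3 knockout cells, against 20.2 and 11.9 in TIM4+ Nr1h3 control cells. Every library of TIM4+ Nr1h3 knockout cells was above every library of TIM4+ Nr1h3 control cells there, with a difference on the log2 scale of 1.26 (SE 0.29, limma adjusted p = 0.00057). Nfkb2 signal was higher over the promoter printed above. Nfkb2 region 2, at a listed promoter at chr19:46304475-46304730, had a signal of 212 and 215 in TIM4+ Nr1h3 knockout cells, against 176 and 137 in TIM4+ Nr1h3 control cells. Nfkb2 region 2 values of the 2 groups did not overlap, differing on the log2 scale by 0.76 (SE 0.14, limma adjusted p = 6.7e-06). Tnfrsf1b region 8, in the gene body at chr4:145222001-145222456, had a signal of 14.7 and 21.8 in TIM4+ Nr1h3 knockout cells, against 70 and 90.4 in TIM4+ Nr1h3 control cells. At Tnfrsf1b region 8 the higher values were all in TIM4+ Nr1h3 control cells, with a difference on the log2 scale of -1.78 (SE 0.23, limma adjusted p = 9.2e-12). Other higher regions had log2 fold changes of 1.13 at Traf1 region 8, 0.99 at Cd80 region 9, 0.88 at Nfkbia region 4, 0.57 at Nlrp3 region 6, 0.51 at Irak2 region 4 and 0.47 at Bcl3 region 8 (limma adjusted p between 0.0027 and 0.0483), and at Irak2 region 4 the groups overlapped. Other lower regions had -1.09 at Irak3 region 12, -0.98 at Il1b region 20 and -0.76 at Il12b region 18 (limma adjusted p between 0.0007 and 0.0157). The count of 21 was 11 without TIM4+ knockout replicate 1, 9 without control replicate 1 and 5 without control replicate 2, and Bcl3 region 8, Cd80 region 9, Il12b region 18, Il1b region 20, Irak2 region 4, Irak3 region 12, Nfkbia region 4, Nlrp3 region 6, Socs3 region 18 and Traf1 region 8 lost the call without 1 of these libraries or TIM4+ knockout replicate 2 (limma adjusted p 0.0539 to 0.336). The 36 regions called in 1 group only were 55 without TIM4+ knockout replicate 1, 63 without TIM4+ knockout replicate 2, 56 without control replicate 1 and 57 without control replicate 2. Without TIM4+ knockout replicate 2, Irak3 region 12 stood at -1.70, and Traf1 region 8 stood at 1.94 with peaks summed. Without centring, 0 member regions passed as higher and 6 as lower, against 60 and 1405 of all 40231 tested regions, and Socs3 region 18, Traf1 region 8, Cd80 region 9, Nfkbia region 4, Nfkb2 region 2, Nlrp3 region 6, Irak2 region 4 and Bcl3 region 8 did not pass (limma adjusted p 0.142 to 0.878). With quantile normalisation, 7 member regions passed as higher and 7 as lower, against 1121 and 1789 of all 40231 tested regions, and Nfkbia region 4, Nlrp3 region 6, Irak2 region 4 and Bcl3 region 8 did not pass (limma adjusted p 0.0529 to 0.166). The median signal was -0.31 (log2), knockout minus control.

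By peak calls, 8 member regions (1.504%, against 0.505% of all regions) had a peak in every library of TIM4+ Nr1h3 knockout cells and none of TIM4+ Nr1h3 control cells, and 28 (5.26%, against 3.67%) in every library of TIM4+ Nr1h3 control cells and none of TIM4+ Nr1h3 knockout cells. Within 1 kb of 3 of the 8 and 7 of the 28 lay a peak of the other group. In TIM4+ knockout cells only, the leading genes were Tnip1 (2, mean 22.8), Traf2 (1, mean 39.95), Tnip3 (1, mean 13.2), Rel (1, mean 9.57) and Birc3 (1, mean 9.28). In controls only, they were Tnfrsf1b (3, mean 33.4), Il12b (3, mean 21.3), Tnfaip2 (2, mean 59.7), Nfkb1 (2, mean 18.9) and Irak3 (2, mean 15.98). Over the 203 member regions the median log2 fold change was 0.16, and over all 40231 tested regions 0.08. In a wider list of 40 further NF-kB pathway genes, 4 of 123 tested regions passed as higher and 4 as lower, with the extreme log2 fold changes at Il10ra, which encodes a chain of the interleukin-10 receptor, at 0.64 (SE 0.19, limma adjusted p = 0.0175) and Malt1, the paracaspase gene, at -1.17 (SE 0.29, limma adjusted p = 0.00275).

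In TIM4- Nr1h3 knockout cells, 26 of 235 tested member regions were higher than in TIM4+ controls and 12 lower, with 7.03% and 6.68% over all regions. IkB-type regions were higher in 5 of 32 cases and lower in 1, adaptor and kinase regions in 7 of 47 and 1, and inflammasome regions in 3 of 13 and 0. Cytokine regions were lower in 4 of 39 and higher in 1. Genotype and TIM4 subset cannot be told apart in this comparison, and its controls are those of the TIM4+ comparison. Socs3 region 18, upstream of the gene (7.53 kb away) at chr11:117977863-117978195, had a signal of 53 and 81.7 in TIM4- Nr1h3 knockout cells, against 20.2 and 11.9 in TIM4+ Nr1h3 control cells. Every library of TIM4- Nr1h3 knockout cells was above every library of TIM4+ Nr1h3 control cells there, differing on the log2 scale by 1.61 (SE 0.25, limma adjusted p = 5e-08). TRAF1 binds the TRAF2 and cIAP proteins of TNF receptor complexes. Traf1 region 7, at a listed promoter at chr2:34961485-34961728, had a signal of 30.6 and 34.9 in TIM4- Nr1h3 knockout cells, against 9.25 and 7.26 in TIM4+ Nr1h3 control cells. Traf1 region 7 values of the 2 groups did not overlap, with a difference on the log2 scale of 1.47 (SE 0.32, limma adjusted p = 0.00014). Tnip1 signal was higher over the promoter printed above. Tnip1 region 17, at a listed promoter at chr11:54962826-54963117, had a signal of 35.9 and 60.5 in TIM4- Nr1h3 knockout cells, against 17.4 and 19.1 in TIM4+ Nr1h3 control cells. At Tnip1 region 17 the lower values were all in TIM4+ Nr1h3 control cells, differing on the log2 scale by 0.91 (SE 0.27, limma adjusted p = 0.00914). Tnfrsf1b region 8, in the gene body at chr4:145222001-145222456, had a signal of 17.7 and 14.7 in TIM4- Nr1h3 knockout cells, against 70 and 90.4 in TIM4+ Nr1h3 control cells. No library of TIM4- Nr1h3 knockout cells reached the level of TIM4+ Nr1h3 control cells at Tnfrsf1b region 8, with a difference on the log2 scale of -2.63 (SE 0.24, limma adjusted p = 8.9e-22). Other higher regions had log2 fold changes of 1.40 at Ptgs2 region 5, 1.04 at Nfkbia region 4, 0.999 at Nfkb1 region 8, 0.88 at Bcl3 region 5 and 0.81 at Nfkbiz region 13 (limma adjusted p between 3.4e-06 and 0.0343). Other lower regions had -1.75 at Nfkb1 region 22, -1.64 at Il12b region 2, -1.44 at Il1rn region 12, -1.25 at Il1b region 20, -1.20 at Tnfaip3 region 4, -0.78 at Map3k8 region 16 and -0.76 at Nfkbiz region 7 (limma adjusted p between 1.8e-06 and 0.0482), and at Nfkbiz region 7 the groups overlapped. The count of 38 was 19 without TIM4- knockout replicate 2, 23 without control replicate 1 and 22 without control replicate 2, and Map3k8 region 16, Nfkb1 region 8, Nfkbia region 4, Nfkbiz region 13, Nfkbiz region 7, Tnfaip3 region 4 and Tnip1 region 17 lost the call without 1 of these libraries or TIM4- knockout replicate 1 (limma adjusted p 0.0582 to 0.632). The 42 regions called in 1 group only were 64 without TIM4- knockout replicate 1 and 76 without control replicate 1. Without control replicate 1, Nfkbiz region 7 stood at -1.16. Without centring, 90 member regions passed as higher and 5 as lower, against 12329 and 1178 of all 46888 tested regions, and Tnfaip3 region 4, Map3k8 region 16 and Nfkbiz region 7 did not pass (limma adjusted p 0.0553 to 0.348). With quantile normalisation, 15 member regions passed as higher and 13 as lower, against 1701 and 2577 of all 46888 tested regions, and Map3k8 region 16 and Nfkbiz region 7 did not pass (limma adjusted p 0.0833 to 0.116). The median signal was 0.40 (log2), knockout minus control. Monocyte marker genes with a peak numbered 2 in TIM4- knockout cells (summed signal 48 to 48.3), against 1 in controls (19.1 to 33), and dendritic cell marker genes summed to 211 to 245, against 121.5 to 154; their part in the result was not tested.

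Of the 532 member regions, 28 (5.26%, against 3.6% of all regions) were called in every library of TIM4- Nr1h3 knockout cells and none of TIM4+ Nr1h3 control cells, and 14 (2.63%, against 1.91%) in every library of TIM4+ Nr1h3 control cells and none of TIM4- Nr1h3 knockout cells. A peak of the other group lay within 1 kb of 7 of the 28 and 4 of the 14. In TIM4- knockout cells only, the leading genes were Irak3 (4, mean 13.96), Nfkb1 (3, mean 7.802), Tnip1 (2, mean 52.5), Nfkbiz (2, mean 23.6) and Traf1 (2, mean 10.6). In controls only, they were Tnfaip2 (2, mean 59.7), Tnfrsf1b (2, mean 44.03), Tnfaip3 (1, mean 59.1), Irak2 (1, mean 48.1) and Socs3 (1, mean 31.3). The median log2 fold change was 0.16 over the 235 member regions and 0.08 over all 46888 tested regions. Of 135 regions tested at the 40 wider pathway genes, 8 passed as higher and 6 as lower, with the extreme log2 fold changes at Irak4, the kinase gene of interleukin-1 receptor signalling, at 1.03 (SE 0.23, limma adjusted p = 0.00024) and Malt1, the paracaspase gene, at -1.66 (SE 0.30, limma adjusted p = 1.8e-06).

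Between the knockout subsets, none of the 215 tested member regions passed with limma, against 2.11% of all regions (0.607% higher and 1.5% lower); 28 member regions had an unadjusted p below 0.05. A p that misses the threshold does not show that the subsets were alike. Socs3 region 18 and Tnfrsf1b region 8 are examples of the regions that set both subsets apart from controls, with values side by side. Others, such as Nfkb2 region 2, Irak2 region 4 and Il12b region 18, also passed against controls in both subsets. Socs3 region 18 had 53 and 81.7 in TIM4- Nr1h3 knockout cells, against 23 and 41.6 in TIM4+ Nr1h3 knockout cells. Tnfrsf1b region 8 had 17.7 and 14.7 in TIM4- Nr1h3 knockout cells, against 14.7 and 21.8 in TIM4+ Nr1h3 knockout cells. Signal was higher in TIM4- libraries at most regions, with a median 0.75 (log2) above TIM4+ libraries, and without centring 156 member regions were higher and 0 lower (72.6%), against 28314 and 147 of all 41838 tested regions (68.03%). The count of 0 was 1 without TIM4+ knockout replicate 1 and 3 without TIM4+ knockout replicate 2. The 38 regions called in 1 group only were 61 without TIM4- knockout replicate 1, 59 without TIM4+ knockout replicate 1 and 68 without TIM4+ knockout replicate 2. Among the 532 member regions, 37 (6.95%, against 5.52% of all regions) were called in every library of TIM4- Nr1h3 knockout cells and none of TIM4+ Nr1h3 knockout cells, and 1 (0.188%, against 0.284%) in every library of TIM4+ Nr1h3 knockout cells and none of TIM4- Nr1h3 knockout cells. The other group had a peak within 1 kb of 7 of the 37. The TIM4+ knockout lists held 48775 and 53972 peaks, against 68613 and 68757 in the TIM4- lists. With lists of equal length, 10 member regions were called in TIM4- cells only and 5 in TIM4+ cells only. In TIM4- cells only, the leading genes were Nfkb1 (5, mean 9.39), Nfkbiz (3, mean 28.6), Irak3 (3, mean 14.1), Il1rn (3, mean 9.89) and Il1a (2, mean 30.3), and the 1 region in TIM4+ cells only was at Socs3, with a mean signal of 36.7. Over the 215 member regions the median log2 fold change was -0.02, and over all 41838 tested regions -0.03. In a wider list of 40 further NF-kB pathway genes, 1 of 130 tested regions passed as higher and 0 as lower, at Irak4, the kinase gene, at 0.81 (SE 0.24, limma adjusted p = 0.0402).

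SMAD4 is the shared mediator of TGF-beta and BMP signalling. In cells titled Smad4 knockout, 4 of 195 tested member regions were higher than in cells titled control and 3 lower, where 1.57% and 1.5% of all regions were, 3.07% in all. Nfkbiz held 2 of the higher regions, and Ripk2 and Socs3 1 each. The lower regions were at Il1b, Il12b and Rela, and no region of the receptors, the inflammasome or the inducible enzymes passed, of 23, 12 and 6 tested. Nfkbiz region 13, in the gene body at chr16:55811829-55812113, had a signal of 15.1 and 26 in cells titled Smad4 knockout, against 9.08 and 7.65 in cells titled control. Every library of cells titled Smad4 knockout was above every library of cells titled control there, differing on the log2 scale by 1.49 (SE 0.31, limma adjusted p = 0.00094). Socs3 region 3, downstream of the gene (26.1 kb away) at chr11:117939697-117940017, had a signal of 41.9 and 71.3 in cells titled Smad4 knockout, against 29.7 and 37.7 in cells titled control. Socs3 region 3 values of the 2 groups did not overlap, with a difference on the log2 scale of 1.03 (SE 0.21, limma adjusted p = 0.00052). Interleukin-12 p40 is a product of activated myeloid cells. Il12b region 18, downstream of the gene (2.75 kb away) at chr11:44417424-44417771, had a signal of 12.3 and 18 in cells titled Smad4 knockout, against 43 and 32.8 in cells titled control. At Il12b region 18 the higher values were all in cells titled control, differing on the log2 scale by -0.94 (SE 0.27, limma adjusted p = 0.0282). The other named regions had log2 fold changes of 1.11 at Ripk2 region 8, -0.97 at Il1b region 15 and -0.67 at Rela region 6 (limma adjusted p between 0.00102 and 0.00718). The count of 7 was 4 without titled knockout replicate 1 and 4 without titled control replicate 2, and Il12b region 18, Il1b region 15, Nfkbiz region 13, Rela region 6, Ripk2 region 8 and Socs3 region 3 lost the call without 1 of these libraries or titled knockout replicate 2 or titled control replicate 1 (limma adjusted p 0.0553 to 0.61). The 24 regions called in 1 group only were 45 without titled knockout replicate 1, 56 without titled knockout replicate 2, 51 without titled control replicate 1 and 48 without titled control replicate 2. Without centring, 0 member regions passed as higher and 2 as lower, against 28 and 502 of all 40067 tested regions, and Nfkbiz region 13, Ripk2 region 8, Socs3 region 3 and Rela region 6 did not pass (limma adjusted p 0.07 to 0.426). With quantile normalisation, 4 member regions passed as higher and 1 as lower, against 253 and 414 of all 40067 tested regions, and Il1b region 15 and Il12b region 18 did not pass (limma adjusted p 0.0542 to 0.0838). The median signal was -0.34 (log2), titled knockout minus titled control.

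By peak calls, 3 member regions (0.564%, against 0.63% of all regions) had a peak in every library of cells titled Smad4 knockout and none of cells titled control, and 21 (3.95%, against 3.56%) in every library of cells titled control and none of cells titled Smad4 knockout. A peak of the other group lay within 1 kb of 3 of the 3 and 6 of the 21. In cells titled knockout only, the genes were Icam1 (1, mean 33.9), Il10 (1, mean 22.6) and Tnip1 (1, mean 14.8). In cells titled control only, the leading genes were Tnfrsf1b (2, mean 22.8), Tnip1 (2, mean 15.95), Nfkbiz (2, mean 13.1), Il1rn (2, mean 9.76) and Ripk2 (2, mean 9.55). The median log2 fold change was 0.05 over the 195 member regions and 0.07 over all 40067 tested regions. Of 111 regions tested at the 40 wider pathway genes, 0 passed as higher and 0 as lower with limma, and 11 had an unadjusted p below 0.05.

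DLL4, a ligand of Notch receptors, is a treatment of the cultured macrophages here, and few member regions passed in it. In DLL4-treated BMDMs, 4 of 277 tested member regions were higher than in untreated BMDMs and 3 lower, with 2.36% and 1.52% over all regions, 3.88% in all. Higher regions were at Nfkb1, Ripk2, Irak2 and Tnfrsf1b. Lower regions were at Tnip3 and, in 2 cases, downstream of Nfkbia. Nfkb1 region 11, in the gene body at chr3:135602809-135603110, had a signal of 66.9 and 83.5 in DLL4-treated BMDMs, against 35.6 and 22.8 in untreated BMDMs. Every library of DLL4-treated BMDMs was above every library of untreated BMDMs there, with a difference on the log2 scale of 1.33 (SE 0.22, limma adjusted p = 6.1e-06). Irak2 region 3, in the gene body at chr6:113650177-113650469, had a signal of 62.5 and 58.8 in DLL4-treated BMDMs, against 44.8 and 22.8 in untreated BMDMs. Irak2 region 3 values of the 2 groups did not overlap, differing on the log2 scale by 0.87 (SE 0.23, limma adjusted p = 0.012). Tnip3 region 12, in the gene body at chr6:65605397-65605667, had a signal of 9.45 and 14.4 in DLL4-treated BMDMs, against 28.3 and 21 in untreated BMDMs. At Tnip3 region 12 the higher values were all in untreated BMDMs, with a difference on the log2 scale of -1.04 (SE 0.32, limma adjusted p = 0.044). The other named regions had log2 fold changes of 0.95 at Ripk2 region 8, 0.51 at Tnfrsf1b region 9 and -0.87 at Nfkbia region 6 (limma adjusted p between 0.00238 and 0.0437). The count of 7 was 3 without DLL4-treated replicate 1, 4 without DLL4-treated replicate 2 and 1 without untreated replicate 2, and Irak2 region 3, Nfkbia region 6, Ripk2 region 8, Tnfrsf1b region 9 and Tnip3 region 12 lost the call without 1 of these libraries or untreated replicate 1 (limma adjusted p 0.0502 to 0.407). The 16 regions called in 1 group only were 31 without DLL4-treated replicate 1, 44 without DLL4-treated replicate 2, 49 without untreated replicate 1 and 38 without untreated replicate 2. Without centring, 5 member regions passed as higher and 2 as lower, against 1912 and 636 of all 72015 tested regions, and Tnip3 region 12 did not pass (limma adjusted p 0.0623). With quantile normalisation, 2 member regions passed as higher and 2 as lower, against 634 and 515 of all 72015 tested regions, and Irak2 region 3, Tnfrsf1b region 9 and Tnip3 region 12 did not pass (limma adjusted p 0.0698 to 0.117).

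Of the 532 member regions, 8 (1.504%, against 1.61% of all regions) were called in every library of DLL4-treated BMDMs and none of untreated BMDMs, and 8 (1.504%, against 1.53%) in every library of untreated BMDMs and none of DLL4-treated BMDMs. Within 1 kb of 1 of the 8 and 5 of the 8 lay a peak of the other group. With DLL4 only, the leading genes were Ripk2 (2, mean 11.1), Irak3 (1, mean 22.4), Il12b (1, mean 16.7), Il1b (1, mean 11.7) and Il6 (1, mean 10.9). Without DLL4 only, they were Nfkb1 (1, mean 25.8), Il1b (1, mean 24.5), Il1rn (1, mean 20.3), Traf1 (1, mean 16.2) and Tnfaip2 (1, mean 15.9). Over the 277 member regions the median log2 fold change was 0.02, and over all 72015 tested regions 0.03. In a wider list of 40 further NF-kB pathway genes, 3 of 187 tested regions passed as higher and 2 as lower, with the extreme log2 fold changes at Nod1, the receptor gene of bacterial peptidoglycan fragments, at 0.93 (SE 0.20, limma adjusted p = 0.00152) and Traf5, an adaptor gene, at -0.82 (SE 0.24, limma adjusted p = 0.0319).

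**Figure D4:**
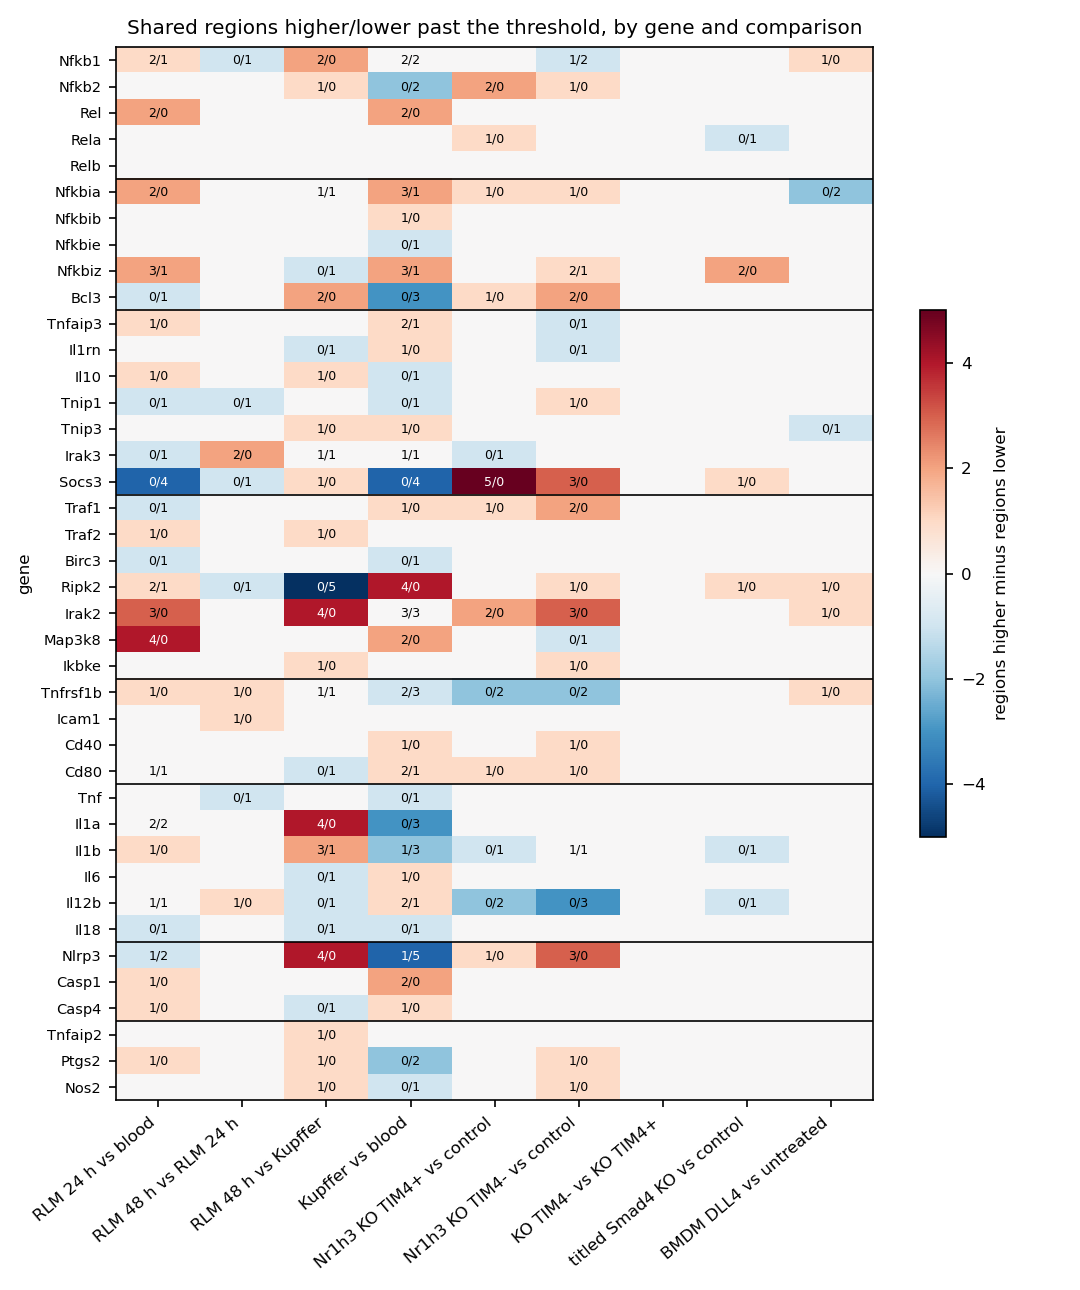
Called member regions per gene (rows, ordered by role) in each of the 9 comparisons (columns), coloured by the number higher minus the number lower, with higher/lower counts printed where any passed. Nr1h3 knockout columns show higher regions at Socs3, where 5 passed in TIM4+ cells, and the Kupffer cell column shows the most calls of either sign.

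Some member regions passed in several comparisons. Of the 155 called, 22 passed in at least 3 comparisons and 10 in at least 4. Calls at 1 region in comparisons that share a group rest on the same libraries. By gene, 39 of 40 members had a call in at least 1 comparison, 26 in at least 3, and Relb, the subunit of the non-canonical pathway, in 0. Il12b, Ripk2, Socs3 and Tnfrsf1b each had calls in 7 of the 9 comparisons. The signals are means ± SD over a group's libraries, in normalised tags as deposited, while the calls rest on centred values, so at some called regions these means lie close together. Of the 42 calls at the 10 regions, 28 passed without centring and 31 with quantile normalisation. At least 4 of a region's own calls were kept at 2 of these 10 (Tnfrsf1b region 8 and Ptgs2 region 5) without centring. With quantile normalisation they were kept at 3 (also Socs3 region 3). Regions could also pass in other comparisons under another scaling, which these counts leave out. Without centring, Socs3 region 3 passed in TIM4- against TIM4+ knockout (limma adjusted p = 0.0186). Socs3 region 3, downstream of the gene at chr11:117939697-117940017, had mean signals of 96.5 ± 26.02 in blood monocytes, 79.4 ± 24.2 at 24 h, 76.7 ± 11.03 at 48 h and 35.8 ± 19.8 in Kupffer cells. The calls at Socs3 region 3 were higher in 48 h against Kupffer cells, TIM4+ Nr1h3 knockout against control, TIM4- Nr1h3 knockout against control and titled Smad4 knockout against titled control, and lower in Kupffer cells against blood. Socs3 region 3 did not pass without centring in TIM4+ Nr1h3 knockout against control and titled Smad4 knockout against titled control (limma adjusted p 0.127 to 0.426). Socs3 region 3 had 107 ± 9.26 in TIM4+ and 154 ± 23.1 in TIM4- knockout cells, against 63.3 ± 18.5 in controls. Socs3 region 3 had 56.6 ± 20.8 in cells titled Smad4 knockout against 33.7 ± 5.66 in titled controls, and 58.2 ± 3.96 with DLL4 against 56.9 ± 7.495 without. Tnfrsf1b region 8, in the gene body at chr4:145222001-145222456, had mean signals of 12.4 ± 1.41 in blood monocytes, 41.1 ± 13.7 at 24 h, 45.5 ± 12.5 at 48 h and 103 ± 13.6 in Kupffer cells. The calls at Tnfrsf1b region 8 were higher in 24 h against blood and Kupffer cells against blood, and lower in 48 h against Kupffer cells, TIM4+ Nr1h3 knockout against control and TIM4- Nr1h3 knockout against control. Tnfrsf1b region 8 had 18.3 ± 5.02 in TIM4+ and 16.2 ± 2.12 in TIM4- knockout cells, against 80.2 ± 14.4 in controls. Tnfrsf1b region 8 had 29.3 ± 5.09 in cells titled Smad4 knockout against 48.5 ± 10.3 in titled controls, and 136 ± 23.5 with DLL4 against 125 ± 3.39 without. Socs3 region 14, at a listed promoter at chr11:117969080-117969454, had mean signals of 247 ± 2.12 in blood monocytes, 116 ± 63.8 at 24 h, 58.6 ± 0.212 at 48 h and 44.4 ± 7.71 in Kupffer cells. The calls at Socs3 region 14 were higher in TIM4+ Nr1h3 knockout against control, and lower in 24 h against blood, 48 h against 24 h and Kupffer cells against blood. Calls of this region were lost without centring in 48 h against 24 h and TIM4+ Nr1h3 knockout against control (limma adjusted p 0.108 to 0.808), and with quantile normalisation in 48 h against 24 h and TIM4+ Nr1h3 knockout against control (limma adjusted p 0.0649 to 0.0954). Socs3 region 14 had 89 ± 2.26 in TIM4+ and 127 ± 0.141 in TIM4- knockout cells, against 78.7 ± 30.97 in controls. Socs3 region 14 had 57.4 ± 11.7 in cells titled Smad4 knockout against 61.6 ± 4.101 in titled controls, and 76.3 ± 9.19 with DLL4 against 66.2 ± 14.2 without. Nfkb2 region 2, at a listed promoter at chr19:46304475-46304730, had mean signals of 179 ± 2.62 in blood monocytes, 194 ± 13.2 at 24 h, 173 ± 9.83 at 48 h and 103 ± 16.3 in Kupffer cells. The calls at Nfkb2 region 2 were higher in 48 h against Kupffer cells, TIM4+ Nr1h3 knockout against control and TIM4- Nr1h3 knockout against control, and lower in Kupffer cells against blood. Nfkb2 region 2 did not pass without centring in TIM4+ Nr1h3 knockout against control (limma adjusted p 0.489), or with quantile normalisation in Kupffer cells against blood (limma adjusted p 0.0565). Nfkb2 region 2 had 213 ± 2.19 in TIM4+ and 328 ± 20.6 in TIM4- knockout cells, against 157 ± 28.1 in controls. Nfkb2 region 2 had 129 ± 12.1 in cells titled Smad4 knockout against 133 ± 42.8 in titled controls, and 225 ± 27.6 with DLL4 against 196 ± 23.9 without. Ptgs2 region 5, downstream of the gene at chr1:150143577-150143926, had mean signals of 62.1 ± 11.9 in blood monocytes, 114 ± 16.8 at 24 h, 111 ± 10.2 at 48 h and 20.95 ± 5.16 in Kupffer cells. The calls at Ptgs2 region 5 were higher in 24 h against blood, 48 h against Kupffer cells and TIM4- Nr1h3 knockout against control, and lower in Kupffer cells against blood. Ptgs2 region 5 had 11.5 ± 2.72 in TIM4+ and 33 ± 4.95 in TIM4- knockout cells, against 8.83 ± 2.22 in controls. Ptgs2 region 5 had 12.4 in 1 of 2 libraries in cells titled Smad4 knockout against 11.5 ± 0.849 in titled controls, and 81.4 ± 15.4 with DLL4 against 71.9 ± 6.08 without.

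Il12b region 18, downstream of the gene at chr11:44417424-44417771, had mean signals of 10.6 in 1 of 2 libraries in blood monocytes, 17.5 in 2 of 3 libraries at 24 h, 32.6 ± 0.566 at 48 h and 54.9 ± 9.26 in Kupffer cells. The calls at Il12b region 18 were lower in 48 h against Kupffer cells, TIM4+ Nr1h3 knockout against control, TIM4- Nr1h3 knockout against control and titled Smad4 knockout against titled control. Calls of this region were lost without centring in 48 h against Kupffer cells and TIM4- Nr1h3 knockout against control (limma adjusted p 0.0584 to 0.0745), and with quantile normalisation in titled Smad4 knockout against titled control (limma adjusted p 0.0838). Il12b region 18 had 28.1 ± 3.68 in TIM4+ and 39.9 ± 11.4 in TIM4- knockout cells, against 60.3 ± 10.5 in controls. Il12b region 18 had 15.2 ± 4.03 in cells titled Smad4 knockout against 37.9 ± 7.21 in titled controls, and 17.7 ± 2.76 with DLL4 against 16 in 1 of 2 libraries without. Il1b region 1, downstream of the gene at chr2:129338299-129338614, had mean signals of 51.2 ± 11.4 in blood monocytes, 97.9 ± 18.8 at 24 h, 134 ± 1.77 at 48 h and 73 ± 12.02 in Kupffer cells. The calls at Il1b region 1 were higher in 24 h against blood, 48 h against Kupffer cells, Kupffer cells against blood and TIM4- Nr1h3 knockout against control. Calls of this region were lost without centring in Kupffer cells against blood (limma adjusted p 0.238), and with quantile normalisation in TIM4- Nr1h3 knockout against control (limma adjusted p 0.329). Il1b region 1 had 118 ± 29.8 in TIM4+ and 206 ± 27.4 in TIM4- knockout cells, against 116 ± 7.495 in controls. Il1b region 1 had 80.4 ± 22.2 in cells titled Smad4 knockout against 89.4 ± 14.3 in titled controls, and 52.7 ± 8.697 with DLL4 against 40.8 ± 9.26 without. Irak2 region 2, in the gene body at chr6:113644856-113645130, had mean signals of 71.95 ± 18.9 in blood monocytes, 107 ± 21.9 at 24 h, 130.1 ± 10.7 at 48 h and 86.9 ± 37.1 in Kupffer cells. The calls at Irak2 region 2 were higher in 24 h against blood, Kupffer cells against blood, TIM4+ Nr1h3 knockout against control and TIM4- Nr1h3 knockout against control. Irak2 region 2 did not pass without centring in 24 h against blood, Kupffer cells against blood and TIM4+ Nr1h3 knockout against control (limma adjusted p 0.128 to 0.898), or with quantile normalisation in TIM4+ Nr1h3 knockout against control and TIM4- Nr1h3 knockout against control (limma adjusted p 0.119 to 0.196). Irak2 region 2 had 153 ± 20.7 in TIM4+ and 260.2 ± 8.84 in TIM4- knockout cells, against 139 ± 25.4 in controls. Irak2 region 2 had 80.9 ± 25.95 in cells titled Smad4 knockout against 93.8 ± 11.9 in titled controls, and 118 ± 3.46 with DLL4 against 104 ± 9.05 without. Irak2 region 4, in the gene body at chr6:113654196-113654502, had mean signals of 68.9 ± 12.2 in blood monocytes, 88.9 ± 14.02 at 24 h, 122 ± 6.51 at 48 h and 65.9 ± 20.7 in Kupffer cells. The calls at Irak2 region 4 were higher in 24 h against blood, 48 h against Kupffer cells, TIM4+ Nr1h3 knockout against control and TIM4- Nr1h3 knockout against control. Irak2 region 4 did not pass without centring in 24 h against blood and TIM4+ Nr1h3 knockout against control (limma adjusted p 0.392 to 0.838), or with quantile normalisation in TIM4+ Nr1h3 knockout against control and TIM4- Nr1h3 knockout against control (limma adjusted p 0.0721 to 0.103). Irak2 region 4 had 112 ± 25.9 in TIM4+ and 195 ± 42.4 in TIM4- knockout cells, against 96.3 ± 10.2 in controls. Irak2 region 4 had 69.9 ± 15.1 in cells titled Smad4 knockout against 69.5 ± 2.33 in titled controls, and 106 ± 4.03 with DLL4 against 85.9 ± 14.9 without. Nlrp3 region 6, upstream of the gene at chr11:59538375-59538677, had mean signals of 132 ± 11.7 in blood monocytes, 88.6 ± 19.4 at 24 h, 98.1 ± 4.38 at 48 h and 52.95 ± 11.95 in Kupffer cells. The calls at Nlrp3 region 6 were higher in 48 h against Kupffer cells, TIM4+ Nr1h3 knockout against control and TIM4- Nr1h3 knockout against control, and lower in Kupffer cells against blood. Nlrp3 region 6 did not pass without centring in TIM4+ Nr1h3 knockout against control (limma adjusted p 0.771), or with quantile normalisation in TIM4+ Nr1h3 knockout against control and TIM4- Nr1h3 knockout against control (limma adjusted p 0.0603 to 0.151). Nlrp3 region 6 had 97.7 ± 16.3 in TIM4+ and 153 ± 6.72 in TIM4- knockout cells, against 80.95 ± 3.32 in controls. Nlrp3 region 6 had 44 ± 6.22 in cells titled Smad4 knockout against 67.6 ± 5.66 in titled controls, and 108 ± 29.3 with DLL4 against 126 ± 22.9 without. By these means, which are not centred, Tnfrsf1b region 8 and Il12b region 18 were highest among the liver groups in Kupffer cells given PBS and Nr1h3 controls. On the same scale Ptgs2 region 5 was highest in repopulating macrophages and Socs3 region 3 in TIM4- Nr1h3 knockout cells. With centring, Socs3 region 3 was not higher in TIM4- than in TIM4+ knockout cells, at -0.23 on the log2 scale (limma adjusted p = 0.592).

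**Figure D5:**
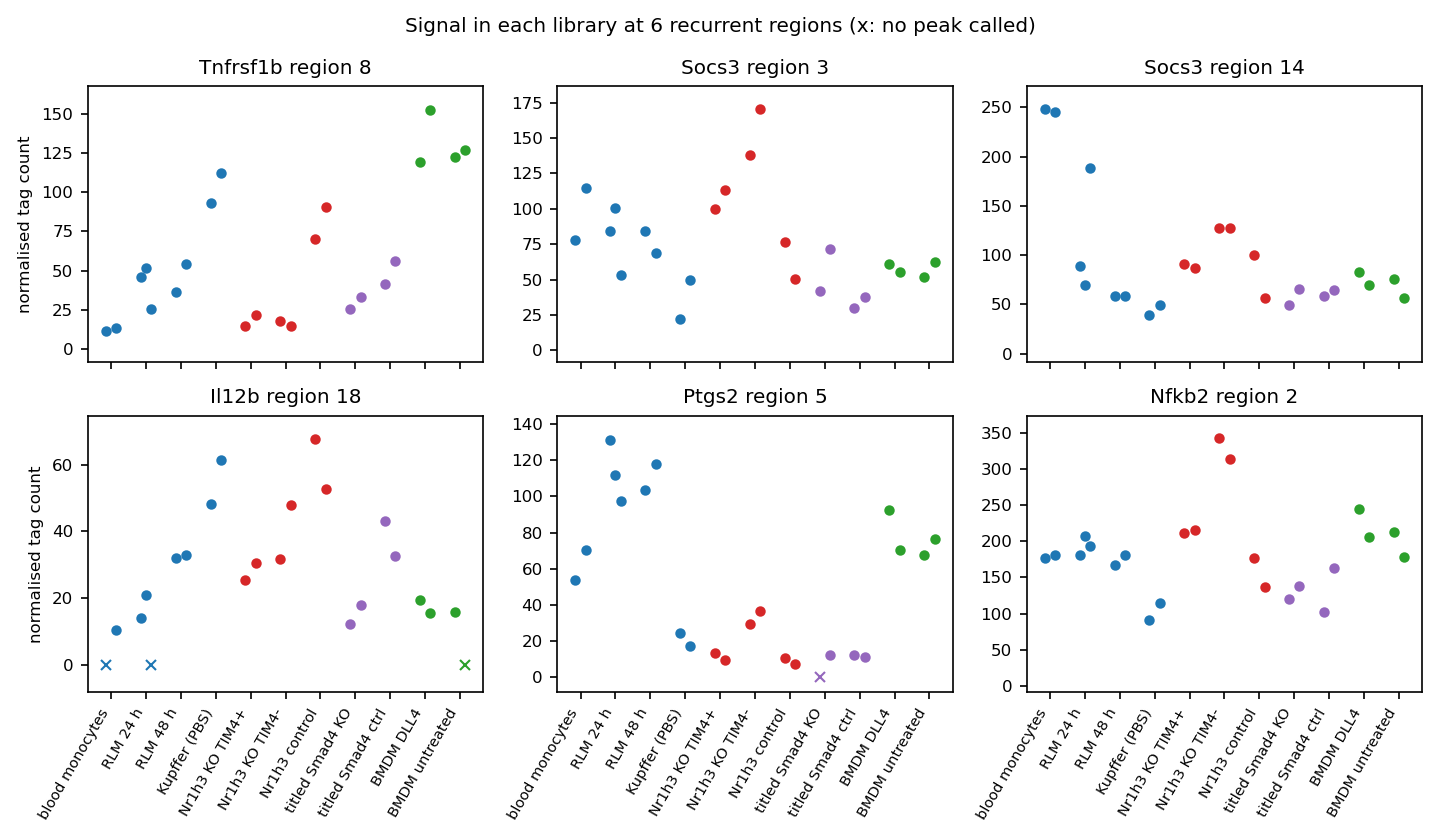
Normalised tag count (y axis) in each library (points; a cross at 0 where no peak was called) by group, at 6 of the 10 member regions past the threshold in at least 4 comparisons with median centring. Socs3 region 3 and Tnfrsf1b region 8, each past the threshold in 5 comparisons, run in opposite directions in the Nr1h3 knockout groups.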

How the data were processed

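Per the submitters' processing notes, the authors aligned ATAC-seq reads to mm10 with Bowtie2 and called peaks with HOMER; the sources used here give no version. The deposited unit is a signal, the normalised tag count of each peak scaled to 10 M tags, per the file headers. The headers give 1 peak list per library, without input control, with a peak size of 200 bp, an FDR of 0.001, a local fold of 4 over 10 kb and at most 1 tag per base pair. Whole reads were not used, so no count model was run. Depth per library was 10.4 to 18.4 M tags. Peaks off the 19 autosomes and X (1205 of 1605886) were left out. Peaks overlapping by at least 1 bp were merged, and each region was assigned to the closest of 21631 protein-coding gene bodies (RefSeq, GRCm38.p6), if under 50 kb away, keeping ties. The strongest peak of a library in a region is its value, and a region without a peak has none; an uncalled region may hold signal under the calling threshold.

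limma 3.58.1 (R 4.3.3, data.table version 1.17.8) fitted each comparison with the libraries of its 2 groups on log2(signal + 1), centred on the median, with a trended prior. Python 3.11.15, numpy 2.4.6 and pandas 2.3.3 did the rest. The fit was also run on simulated data with planted changes. The noise there was set equal for all regions and libraries, so the run does not show how the fit does with the measured spread. Named in each comparison are the strongest called region of up to 8 genes in each direction and the 5 genes with most group-only regions; values in every group are given for the 10 genes with most regions, the 5 with fewest and those named in at least 3 comparisons. Alternatives were other scalings, pseudocount 5, a mean signal of at least 20, a 10 kb limit, a merge overlap of 100 bp, equal list lengths, summed peaks, fits over a whole experiment, the replicate block and leaving out each library. The members and lists were chosen with earlier results of these data known. Replicate numbers in the titles do not show whether libraries are paired, and the main fits treated them as unpaired.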

Additional observations from a re-analysis of the deposited data

How the results depend on the processing

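Counts of member regions past the threshold and of group-only member regions were recomputed under each alternative; 127 of these values lay within 1.5 times the value reported, 59 did not, and no named region changed sign. The count past the threshold, 50 for 24 h against blood, was 33 within 10 kb of a gene; 47 for 48 h against Kupffer cells became 73 without centring. It was 21 for TIM4+ Nr1h3 knockout against control and 6 without centring, and 38 for TIM4- knockout against control, 95 without centring and 24 at a mean signal of at least 20. TIM4- against TIM4+ knockout gave 0, against 156 without centring, 1 with a pseudocount of 5 and 1 in a fit over all libraries of the experiment. Titled Smad4 knockout against control gave 7, against 2 without centring and 4 within 10 kb, and DLL4 against untreated gave 7, against 4 with quantile normalisation and 4 within 10 kb. Group-only regions for 48 h against 24 h numbered 23, against 15 with lists of equal length, and for TIM4- against TIM4+ knockout 38, against 15 with lists of the same length and 23 within 10 kb. With equal lists the split, first-named and second-named group, was 10 and 5 in both. It was 31 and 17 for 48 h against Kupffer cells, 24 and 11 for 24 h against blood, and 48 and 43 for Kupffer cells against blood. It was 14 and 22 for TIM4+ knockout, 17 and 13 for TIM4- knockout, 7 and 12 for titled Smad4 knockout, and 9 and 10 for DLL4. The cause was not tested, beyond the smaller number of regions within 10 kb.

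Leaving out each library in turn gave counts past the threshold of 19 to 63 for 24 h against blood, 1 to 12 for 48 h against 24 h, 18 to 54 for 48 h against Kupffer cells, 50 to 82 for Kupffer cells against blood, 5 to 15 and 19 to 28 for TIM4+ and TIM4- Nr1h3 knockout against control, 0 to 3 between the subsets, 4 to 6 for titled Smad4 knockout and 1 to 6 for DLL4. Group-only counts in the same order were 48 to 58, 29 to 51, 85 to 98, 122 to 138, 55 to 63, 55 to 76, 52 to 68, 45 to 56 and 31 to 49; with fewer libraries, fewer have to agree. Where a group is left with 1 library, that library is assumed to vary like the other group. Of the 97 named calls, each a region in 1 comparison, 42 passed under every alternative. A region named in several comparisons counts in each. Correlations of replicate differences between groups of the Nr1h3 and BMDM experiments lay between -0.038 and 0.061. With 2 libraries per group they cannot decide whether same-numbered libraries share an animal or day, so pairing is unknown. With the replicate number as a block, 28, 39, 2 and 5 member regions passed for TIM4+ knockout, TIM4- knockout, TIM4- against TIM4+ and DLL4; for the repopulation and Smad4 comparisons no paired analysis was possible because their titles share no replicate numbers. The headers give a calling threshold of 8 to 11 tags, and sites not called as peaks are not in these lists. Some listed values lie under that threshold. In blood monocyte replicate 1, with a threshold of 8 tags, the lowest value was 4.88 normalised tags, where 1 tag is worth 0.814.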
